A study of Mus musculus with 4 samples.

Results

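The 8 subunits of the cytosolic chaperonin CCT, also called TRiC, were followed at the level of ribosome-protected fragments in mouse primary myoblasts with and without a deletion of the gene for eIF5A. The subunits were taken by gene symbol (Tcp1, Cct2, Cct3, Cct4, Cct5, Cct6a, Cct7 and Cct8), which gave 8 of the 55573 genes in the deposited table, 1 row for each symbol. All 8 were detected in every library and all 8 were among the 11363 genes with a mean of at least 1 RPKM that entered the test. RPKM is reads per kilobase of gene and per scaled library, where the kilobases are those of the deposited exon model and the scaling makes the median gene equal between libraries.

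CCT is a barrel of a pair of rings stacked back to back, and each ring holds 1 copy of each of the 8 subunits in a fixed order. A newly made protein is bound inside the open ring, ATP binding and hydrolysis close the lid, and the protein folds in the closed chamber. Actin and tubulin are its classical obligate substrates, and proteins with WD repeats, such as G protein beta subunits, are others. Because the assembled ring uses the subunits in equal numbers, their synthesis rates are a usual test case for proportional synthesis of complex members. In muscle precursor cells, which make large amounts of actin as they fuse and build sarcomeres, the chaperonin serves the folding of that actin. eIF5A is a translation factor that carries the modified residue hypusine and helps ribosomes through stall-prone stretches such as runs of proline, and it also acts in termination.

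The libraries were made from satellite-cell-derived primary myoblasts of the hind limb muscle of 3-week-old mice, kept in culture to day 2 under proliferating conditions with FGF, and there were 2 libraries labelled WT and 2 labelled eIF5A-KO. The eIF5A-KO mice carried Pax7 CreERT2/+ together with eIF5A f/f and received tamoxifen. The deletion thus depends on Cre made from the Pax7 locus, which is active in satellite cells and not in other cells of the muscle. The WT animals are described as littermates, and whether they received tamoxifen is not stated for these libraries. In other experiments with this knockout, KO and WT mice are both described as injected with it. The genotype of the WT animals is given in 2 ways in the sources, once as carriers of the Cre allele and once as eIF5A f/f animals without it, so whether they shared the Cre allele with the KO animals is not settled here. Cells of all 4 libraries were treated with cycloheximide, which holds ribosomes on the mRNA. The 2 libraries of a group are described as duplicate experiments, with no statement of whether they came from separate animals or cultures, so the p-values below measure only the spread between these libraries, which may be technical.

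The subunits are homologous proteins encoded by separate genes. The stretch printed here is 45 bases around the conserved nucleotide-binding residues glycine, aspartate, glycine, threonine, threonine, which the family shares, and their codons are in capitals. It is given for all 8 subunits, 5′ to 3′ on the coding strand, so that the genes can be compared base by base.
Tcp1: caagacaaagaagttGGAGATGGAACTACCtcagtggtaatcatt
Cct4: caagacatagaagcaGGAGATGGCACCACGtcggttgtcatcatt
Cct2: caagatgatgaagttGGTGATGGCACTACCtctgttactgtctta
Cct5: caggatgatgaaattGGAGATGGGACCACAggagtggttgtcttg
Cct7: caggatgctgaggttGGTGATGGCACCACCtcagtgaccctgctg
Cct8: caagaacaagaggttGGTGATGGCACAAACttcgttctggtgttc
Cct6a: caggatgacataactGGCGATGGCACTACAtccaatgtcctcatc
Cct3: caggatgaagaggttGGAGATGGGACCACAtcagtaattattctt

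The capitals encode those 5 residues in 7 of the 8 subunits, and the Cct8 stretch ends with a codon for another residue. On GRCm38 the stretch of Tcp1 lies at chr17:12918136-12919359 on the plus strand, that of Cct4 at chr11:22995951-22995995 on the plus strand, that of Cct2 at chr10:117061523-117061567 on the minus strand and that of Cct5 at chr15:31595839-31597450 on the minus strand. The stretch of Cct7 lies at chr6:85460037-85461077 on the plus strand, that of Cct8 at chr16:87491362-87491406 on the minus strand, that of Cct6a at chr5:129789101-129789145 on the plus strand and that of Cct3 at chr3:88302819-88302863 on the plus strand. In Tcp1, Cct5 and Cct7 it is split over exons 3 and 4, so the interval also holds the intron between them, while in the others it sits within exon 3 (Cct6a), exon 4 (Cct4 and Cct8) or exon 5 (Cct2 and Cct3). The 45 bases themselves are coding exon in the annotation except in Cct6a, whose transcripts carry no annotated coding sequence there, and for which the longest open reading frame was used.

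The 8 coding sequences ran from 1599 bases (Cct6a) to 1671 bases (Tcp1), and the proteins from 532 to 556 residues. Pairwise identity of the encoded proteins, over 28 pairs, ranged from 23.9% (Cct6a and Cct8) to 38.1% (Cct4 and Cct5) with a median of 31.8%. No subunit had a run of 3 prolines, the longest run being 2 in Cct5, Cct6a, Cct7 and Cct8 and 1 in the others. The genes lay on 8 different chromosomes. The exon models used for the deposited lengths were far less even than the coding parts, from 2557 bases for Cct2 to 6778 bases for Cct7, or 1.59 to 4.15 times the coding length.

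Total gene-assigned reads were close to each other, from 642429 to 704006 per library, but reads on protein-coding genes made up 41.5% and 33.9% in WT against 65.4% and 59.2% in KO. By chi-square per degree of freedom, the library labelled WT replicate 1 differed from the KO libraries by 10.2 and 8.74, the highest values over the pairs of libraries, and from WT replicate 2 by 6.94. The other 3 libraries differed from each other by 3.61 to 7.56, so these ranges overlap. This measure can grow with the number of reads in a pair, and the pairs were not matched in depth. Protein-coding reads were 269143 and 217651 in WT and 460099 and 385091 in KO. The lowest value, 3.61, lay between WT replicate 2 and KO replicate 2, which are libraries of different groups. Footprints on Eif5a, the targeted gene, did not separate the groups, at 34.9 and 65.2 RPKM in WT and 60.3 and 59.4 RPKM in KO, with a log2 difference of 0.32 ± 0.48 (SE) and an adjusted p of 0.839 in limma. Which part of Eif5a is removed was not examined here, so the reads over the whole gene do not check the labels, and directions below are those of the libraries labelled KO and WT. Ribosome footprints alone do not tell a change in mRNA level from a change in translation of each mRNA, and in bulk samples fewer cells of a type and less RNA per cell cannot be told apart.

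All 8 subunits had more footprint signal on average in the libraries labelled KO than in those labelled WT, by 1.54-fold (Cct4) to 2.04-fold (Cct8) on group means, and none passed the test. Leaving out WT replicate 1 took the median log2 difference of the 8 from 0.90 to 0.34, and leaving out WT replicate 2 took it to 1.46. The side of the ring whose subunits bind ATP strongly is given first, then the side that binds it weakly.

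Tcp1, the alpha subunit and the gene that gave the family its name, lies at chr17:12915701-12925067 on the plus strand. Its level was 21.4 and 35.0 RPKM in WT and 54.1 and 50.2 RPKM in KO, a mean of 28.2 ± 9.61 against 52.2 ± 2.78 (SD, n = 2 each). Both KO libraries lay above both WT libraries. Its log2 difference was 0.90 ± 0.45 (SE; 95% interval -0.19 to 2.00), and its adjusted p of 0.676 was the lowest of the 8. Cct4, the delta subunit, lies at chr11:22990519-23003780 on the plus strand and read 23.3 and 54.1 RPKM in WT and 62.2 and 57.2 RPKM in KO. WT replicate 1 was low and the other 3 libraries were close together, with WT replicate 2 just below the KO libraries. The log2 difference of Cct4 was 0.73 ± 0.53 (SE; 95% interval -0.58 to 2.04; adjusted p = 0.707).

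Cct2, the beta subunit, lies at chr10:117051001-117063814 on the minus strand and read 52.5 and 138 RPKM in WT and 160 and 161 RPKM in KO. The KO libraries were nearly equal and the WT libraries differed 2.62-fold, more than the 1.68-fold between group means. Its log2 difference was 0.90 ± 0.60 (SE; 95% interval -0.57 to 2.37; adjusted p = 0.697). Cct5, the epsilon subunit, lies at chr15:31590800-31601804 on the minus strand and read 54.6 and 69.1 RPKM in WT and 102 and 98.0 RPKM in KO. It had the closest WT pair of the 8, 1.27-fold apart, and the KO mean of 100.2 ± 3.12 (SD, n = 2) stood 1.45-fold above WT replicate 2. The log2 difference of Cct5 was nevertheless the smallest, at 0.70 ± 0.44 (SE; 95% interval -0.38 to 1.77; adjusted p = 0.697).

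Cct7, the eta subunit, lies at chr6:85451514-85468475 on the plus strand and read 24.0 and 45.1 RPKM in WT and 60.7 and 54.1 RPKM in KO. The groups did not overlap, and the WT libraries differed 1.88-fold. Its log2 difference was 0.78 ± 0.48 (SE; 95% interval -0.40 to 1.96; adjusted p = 0.697). Cct8, the theta subunit, lies at chr16:87483326-87495873 on the minus strand, had the most reads of the 8, and read 40.3 and 126 RPKM in WT against 169.95 and 169.99 RPKM in KO. The KO pair rested on 476 and 424 reads and was nearly equal once scaled, while the WT pair was 3.14-fold apart. Cct8 had the largest log2 difference of the 8, 1.24 ± 0.65 (SE; 95% interval -0.36 to 2.83; adjusted p = 0.680).

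Cct6a, the zeta subunit, lies at chr5:129786998-129846371 on the plus strand and read 38.9 and 124 RPKM in WT and 109 and 163 RPKM in KO. It was the 1 subunit whose groups overlapped, with KO replicate 1 below WT replicate 2, and its KO libraries, with 358 and 476 reads, were the farthest apart of the 8. Its log2 difference was 0.92 ± 0.67 (SE; 95% interval -0.72 to 2.57; adjusted p = 0.706). Cct3, the gamma subunit, lies at chr3:88297116-88321767 on the plus strand and read 16.4 and 51.0 RPKM in WT and 69.2 and 60.3 RPKM in KO. The WT libraries differed 3.11-fold, against 1.92-fold between group means. The log2 difference of Cct3 was 1.12 ± 0.61 (SE; 95% interval -0.39 to 2.64; adjusted p = 0.691).

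**Figure D1:**
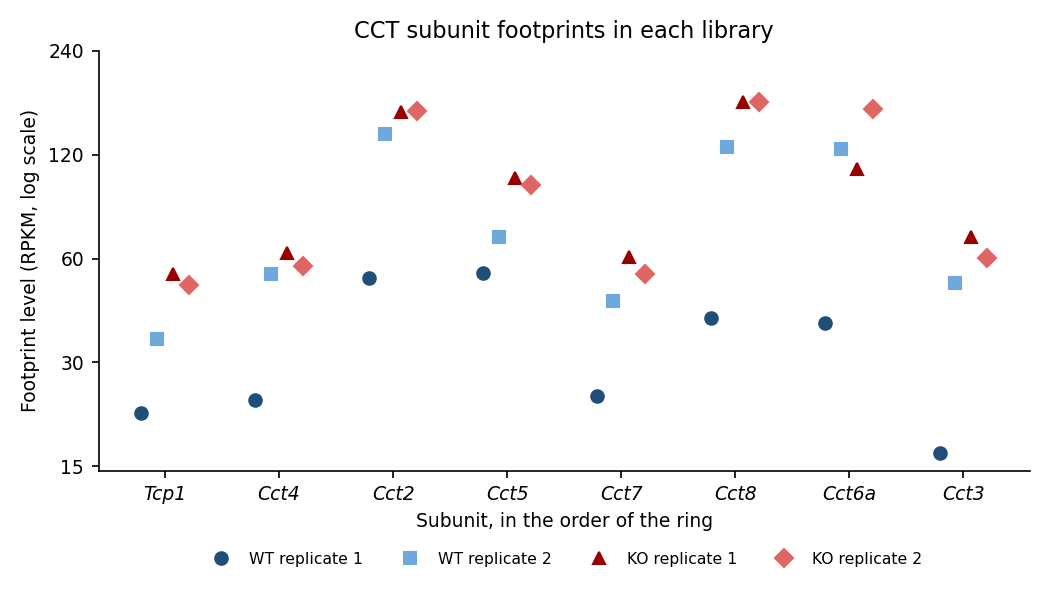
Footprint level of each CCT subunit in each of the 4 libraries, in RPKM on a log axis, with 1 point for each library and the subunits in their order around the ring. WT replicate 1 is the lowest point for all 8 subunits, and for Cct6a KO replicate 1 (109 RPKM) lies below WT replicate 2 (124 RPKM).

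The 8 genes had 59 to 98 reads each in WT replicate 1, 83 to 212 in WT replicate 2, 237 to 476 in KO replicate 1 and 194 to 476 in KO replicate 2. A median gene in the test had 54 reads over all 4 libraries together, so the subunits were measured more deeply than most. All 8 were far above the level of 3 reads, which for a gene of 1 kilobase would be 3.31 to 6.37 RPKM.

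With 2 libraries in each group, an exact permutation test of a single value cannot give a two-sided p below 0.333. In the fit across all genes (limma, log2 of RPKM + 1), 0 of the 8 subunits had an adjusted p under 0.05, where 0.106% of the genes tested did. At an unadjusted p under 0.05, 0 of the 8 were called higher in KO, against 2.86% of all genes tested, and voom on the recovered reads called 2 (Cct3 and Cct8), against 3.74% of genes by the same tool, with 0 after adjustment. Other settings gave more unadjusted calls in limma, with 0 after adjustment in each: 8 of 8 subunits were called higher with total reads as the scale, against 14.8% of genes, 8 of 8 without WT replicate 2, against 7.12%, and 1 of 8 (Cct8) with quantile normalization, against 3.71%. Without WT replicate 2 the WT arm is WT replicate 1 alone, which was the lowest library for every subunit, so the spread comes from the KO pair and the lone library is assumed to vary like it. The unadjusted p-values of the 8, from limma, ran from 0.090 (Tcp1) to 0.221 (Cct4).

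The direction was shared by the 8. All 8 log2 differences were above 0, against 50.0% of the genes tested, and their median was 0.90 where that of all genes tested was 0.00. Both KO libraries lay above both WT libraries for 7 of 8 subunits, against 20.1% of the genes tested. With total reads as the scale this was 8 of 8 against 41.4%, and the median of the subunits was 1.51 where that of all genes was 0.47. The 300 protein-coding genes with at least as many reads as the least-read subunit (597 reads, Cct4) had a median log2 difference of 0.46, and 42.7% of them had both KO libraries above both WT libraries. Since the KO libraries held more protein-coding reads, a gene higher in KO reached that number of reads more easily. Set against those 300 genes, the subunits stood closer to the background than against all genes.

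**Figure D2:**
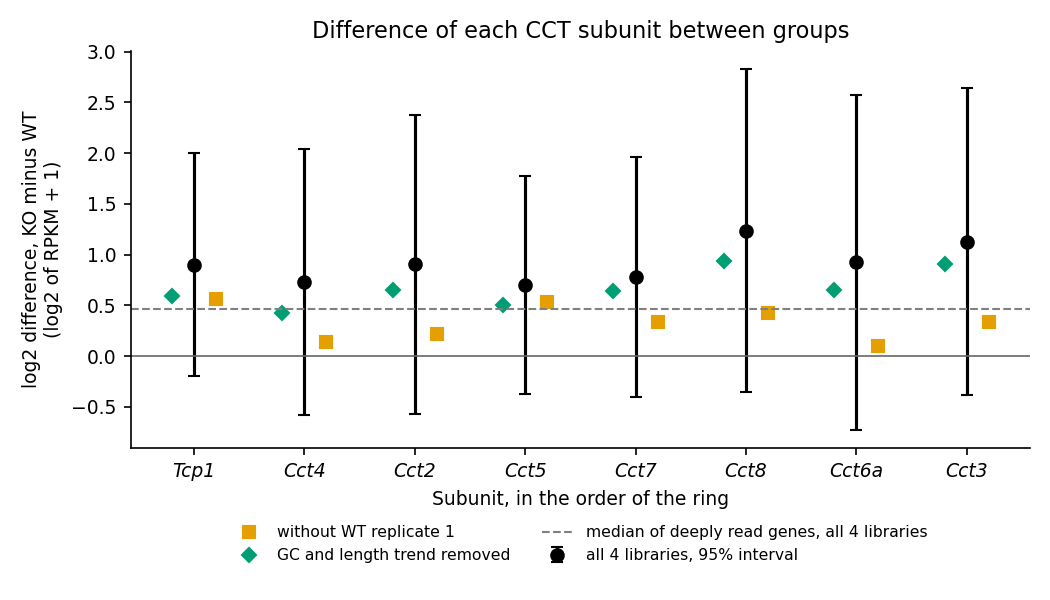
Log2 difference of each subunit, KO minus WT, on the log2(RPKM + 1) scale. Black points with their 95% interval are for all 4 libraries. Squares are without WT replicate 1 and diamonds have the trend on GC content and length removed, both drawn without an interval. The dashed line is the median of the deeply read genes for all 4 libraries. All 8 estimates are above 0 in each set, and every interval drawn crosses 0. Without WT replicate 1 the estimates run from 0.10 to 0.56.

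**Figure D3:**
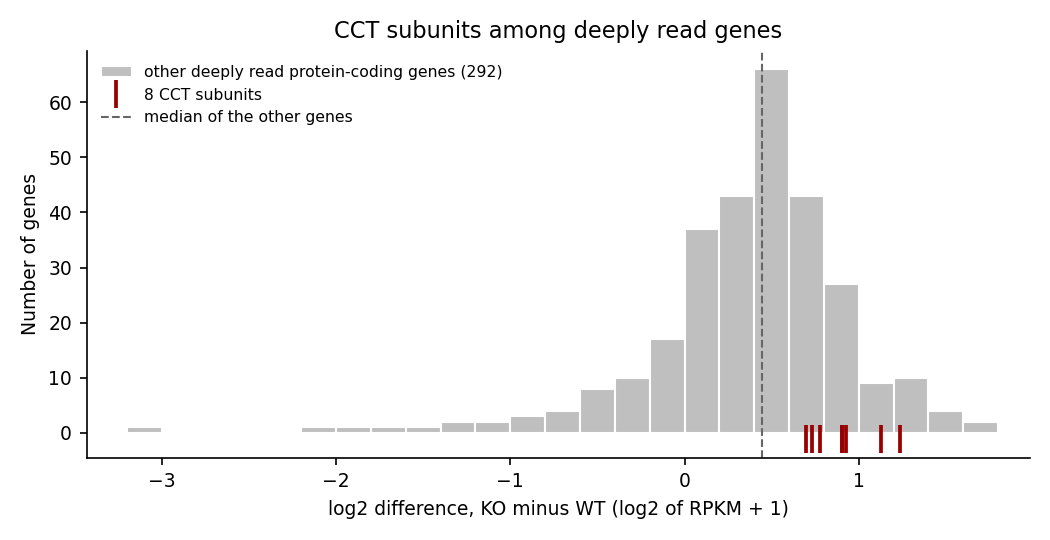
Log2 difference, KO minus WT, of the 300 protein-coding genes with at least 597 reads, with the 8 subunits marked. The subunits lie at 0.70 to 1.24, above the median of 0.46 of these genes.

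Without WT replicate 1, WT replicate 2 is the only WT library, so the intervals rest on the spread of the KO pair, moderated over all genes, and assume that the lone library varies like it. The log2 differences became 0.56 for Tcp1, 0.53 for Cct5, 0.42 for Cct8, 0.34 for Cct3 and Cct7, 0.22 for Cct2, 0.14 for Cct4 and 0.10 for Cct6a. The order of the subunits changed with it, with Tcp1 and Cct5 first. The interval of Cct6a, whose KO libraries were the farthest apart, ran from -1.48 to 1.68. Both KO libraries lay above WT replicate 2 for 7 of 8 subunits, against 56.0% of the 300 deeply read genes, whose median difference was then 0.27. The median of the subunits, 0.34, was close to it.

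The coding GC content of the subunits, 44.5% (Tcp1) to 51.5% (Cct7), lay below the median of 53.1% of the protein-coding genes tested. With the trend of the log2 difference on GC content and length removed, their median difference was 0.65. Both KO libraries then lay above both WT libraries for 5 of 8, against 19.9% of the 9842 protein-coding genes in that fit. The 298 deeply read genes in that fit had a median of 0.44. The part of GC content in the difference was not tested further.

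As a share of the reads on protein-coding genes, the ring as a whole took 0.229% (95% Wilson interval 0.212 to 0.248%) in WT replicate 1 and 0.523% (0.494 to 0.555%) in WT replicate 2. In the KO libraries it took 0.591% (0.569 to 0.614%) and 0.638% (0.613 to 0.663%). These intervals cover counting error only. Both KO shares were above both WT shares, but the gap between the WT libraries was wider than that between WT replicate 2 and either KO library. The summed RPKM of the 8 subunits was 271 and 643 in WT and 788 and 813 in KO, so WT replicate 2 stood 2.37-fold above WT replicate 1 and the KO mean 1.25-fold above WT replicate 2.

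How even the levels were among the subunits depended on the length they were divided by. On the deposited scale, the highest subunit was 3.33 times the lowest in WT replicate 1 (Cct5 over Cct3) and 3.93 times in WT replicate 2 (Cct2 over Tcp1). In the KO libraries it was 3.14 and 3.39 times (Cct8 over Tcp1 in both). Per kilobase of coding sequence, which is where elongating ribosomes sit, the same reads gave 1.65 times (Cct7 over Cct4) and 2.67 times (Cct6a over Tcp1) in WT, and 1.98 times (Cct8 over Cct4) and 2.49 times (Cct6a over Cct4) in KO. The coefficient of variation over the 8 subunits went from 43.3 to 53.3% per kilobase of exon model down to 18.7 to 34.2% per kilobase of coding sequence. On group means, the highest over the lowest was 3.37 in WT and 3.26 in KO by exon model, and 2.17 in WT and 2.06 in KO by coding length. As means of the library ratios, it was 3.63 in WT and 3.26 in KO by exon model, and 2.16 in WT and 2.23 in KO by coding length. By coding length these group means lay closer to each other than the libraries within either group did. By exon model the KO libraries lay closer to each other than the group means of the library ratios did.

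**Figure D4:**
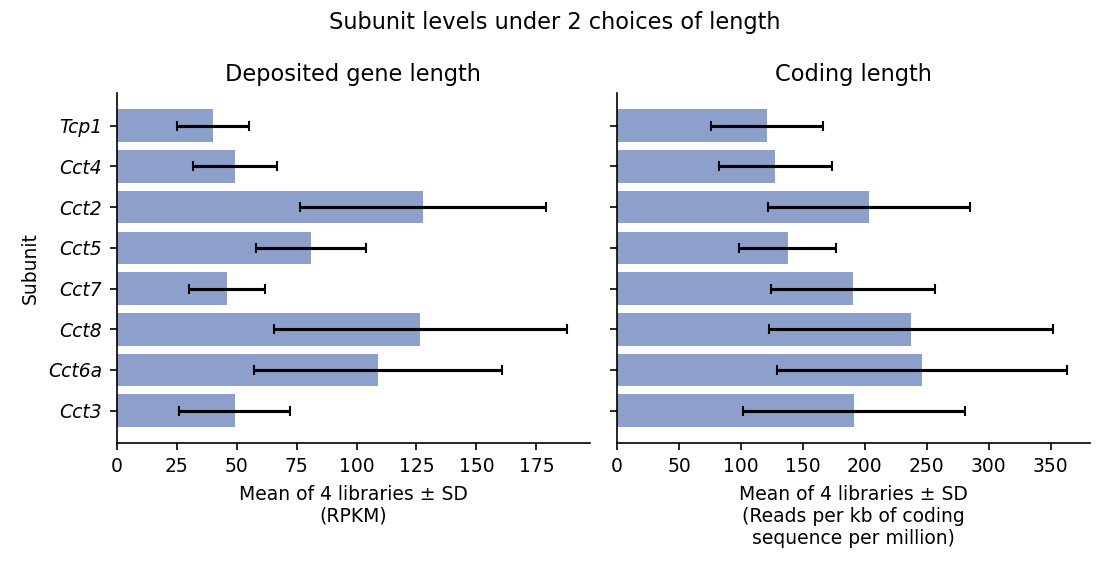
Mean level of each subunit over the 4 libraries, per kilobase of the deposited exon model and per kilobase of coding sequence. The subunits with the longest exon models, Cct7 and Cct3, move from 46.0 and 49.2 RPKM to 190.5 and 191.4 per kilobase of coding sequence, close to Cct2 at 203.

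By deposited RPKM averaged over the 4 libraries the order was Cct2 (127.8), Cct8 (126.7), Cct6a (108.8), Cct5 (81.0), Cct3 and Cct4 (both 49.2), Cct7 (46.0) and Tcp1 (40.2). By coding length it was Cct6a (246), Cct8 (237.5), Cct2 (203), Cct3 (191.4), Cct7 (190.5), Cct5 (138), Cct4 (127.5) and Tcp1 (121). Cct8 and Tcp1 kept their rank, second and last. The libraries with more signal weigh more in these means, and by the mean ring share, which weights the 4 libraries equally, Cct7 came before Cct3 with the rest of the coding-length order unchanged. In the order by mean ring share, the ranges of the ring share of all 7 pairs of neighbours overlapped across the 4 libraries, so no neighbour was set apart from the next.

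Expressed as a share of the summed coding-length level of the ring, where even levels would give 12.5% each, Cct6a held 16.5 ± 3.26%, Cct8 15.6 ± 2.45%, Cct2 13.9 ± 0.612% and Cct7 13.5 ± 1.69% (SD over the 4 libraries). Cct3 held 12.7 ± 1.89%, Cct5 10.3 ± 3.07%, Cct4 8.94 ± 0.760% and Tcp1 8.58 ± 1.34%. Cct4 and Tcp1 were below the even share in every library. Cct2 had the steadiest share, from 13.3 to 14.7%. Cct5 had a share of 14.8% in WT replicate 1 and 7.91, 9.48 and 8.93% in WT replicate 2, KO replicate 1 and KO replicate 2, so that WT replicate 1 differed from the other 3 in the make-up of the ring as well as in its level. Cct6a held 14.0 and 18.9% in WT and 13.4 and 19.7% in KO, splitting each group in a like way. Cct8 was the 1 subunit whose share was higher in both KO libraries (17.3 and 17.1%) than in both WT libraries (12.0 and 16.0%), and Cct4 the 1 whose share was lower in both (8.77 and 7.94% against 9.62 and 9.43%). With 1 of 8 in each direction, and no share over all genes to read them against, these are descriptions and not differences between the groups.

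**Figure D5:**
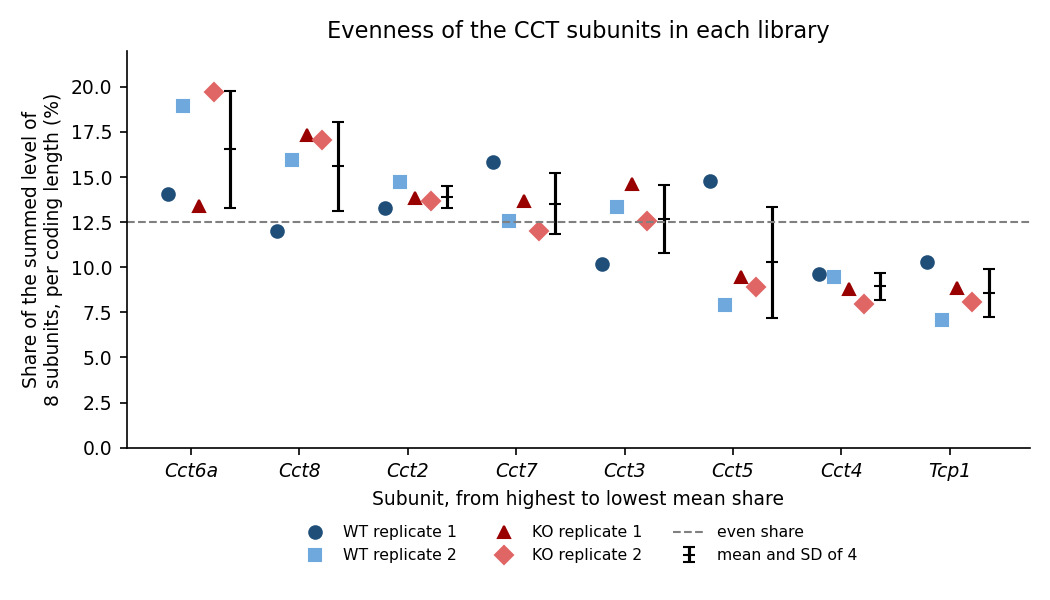
Share of each subunit in the summed footprint level of the ring per kilobase of coding sequence, in percent, for each of the 4 libraries, with a line at the even share of 12.5%. Shares run from 7.10% (Tcp1, WT replicate 2) to 19.7% (Cct6a, KO replicate 2), and Cct5 in WT replicate 1 (14.8%) stands above its other 3 libraries.

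The difference between the sides of the ring was not tested. The strong ATP binders, Tcp1, Cct2, Cct4 and Cct5, summed to 152 and 296 RPKM in WT and 379 and 366 RPKM in KO, with a median log2 difference of 0.82. The weak binders, Cct3, Cct6a, Cct7 and Cct8, summed to 120 and 347 RPKM in WT and 409 and 447 RPKM in KO, with a median of 1.02. The weak side was the lower of the sides in WT replicate 1 and the higher in the other 3 libraries, and both subunits called by voom at an unadjusted p under 0.05, Cct3 and Cct8, belong to it. Without WT replicate 1 the medians were 0.37 and 0.34.

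Genes lying over the subunits took few reads. Cct2, Cct3, Cct4 and Cct5 had no overlapping gene in the annotation. On the opposite strand, Usp16 overlaps Cct8 with 8 to 24 reads a library, Psph overlaps Cct6a with 6 to 16, Mrpl18 overlaps Tcp1 with 0 to 6, and Pradc1 overlaps Cct7 with 0 to 2. Small nucleolar RNA genes within Tcp1 (Snora20, 0 to 5 reads) and Cct6a (Gm23245, 8 to 18 reads) lie on the same strand. How the counting treated strand and reads that map to several places is not given in the sources used here, so reads in the overlapping parts cannot be assigned with certainty. The pseudogene Tcp1-ps1 was listed at 0.

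The paralogs of the subunits were nearly silent. Cct6b, the testis form of the zeta subunit, had 1 read in WT replicate 1 and 0 in the others, and Cct8l1 had the same. Mkks, Bbs10 and Bbs12, the chaperonin-like proteins that help assemble the ciliary BBSome, had at most 6 reads in any library. Mkks was the 1 of the 5 paralogs with a level high enough for the test.

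The mitochondrial chaperonin was measured by 2 genes. Hspd1, which encodes the barrel-forming Hsp60, read 22.6 and 33.7 RPKM in WT and 68.4 and 41.7 RPKM in KO, and Hspe1, its lid, 12.4 and 36.0 against 71.1 and 42.0 RPKM. Both genes had KO libraries above both WT libraries, as 20.1% of the genes tested did, with log2 differences of 0.93 and 1.32 (0.65 and 0.59 without WT replicate 1), and 0 of 2 passed the test.

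Prefoldin, the 6-subunit jellyfish-shaped carrier that hands actin and tubulin to CCT, had 4 of 6 genes higher and 2 lower in KO on average with a median log2 difference of 0.22 (0.35 without WT replicate 1), and 0 of 6 passed. Pfdn5 read 26.2 and 36.5 RPKM in WT and 38.8 and 36.4 RPKM in KO. Pfdn2 read 12.0 and 20.8 against 17.1 and 10.9 RPKM. The groups overlapped for both, and Vbp1 was the 1 prefoldin gene whose KO libraries were both above the WT libraries, at 14.0 and 17.4 against 7.78 and 8.96 RPKM, a log2 difference of 0.83. This was 1 of 6 genes, where 20.1% of all genes tested had such an order. Of the phosducin-like cofactors, which bind CCT together with its substrates, 3 of 4 were tested, with 2 higher, 1 lower, a median of 0.23 (0.39 without WT replicate 1) and 0 passing, and Pdcl2 was at 0 in every library. The most-read of them, Pdcl3, read 10.6 and 5.03 RPKM in WT and 11.0 and 7.04 RPKM in KO, and Txndc9 2.92 and 3.03 against 5.33 and 3.40 RPKM.

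The actins were split in direction. Among 8 genes of this list, which holds 6 actins and the actin-related Actr2 and Actr3, 4 were higher and 4 lower in KO with a median log2 difference of -0.19, and 0 had an adjusted p under 0.05. The cytoplasmic actins Actb and Actg1 and both actin-related genes were the 4 higher ones, and the muscle actins Acta1, Acta2, Actc1 and Actg2 the 4 lower ones. Without WT replicate 1 the median was -0.16. The log2 difference of Actg1 then turned to -0.13 and that of Actr3 was 0.02, while every gene but Actg1 kept its direction. Actb, the main cytoplasmic actin, read 370 and 780 RPKM in WT and 876 and 940 RPKM in KO, and Actg1, the other cytoplasmic actin, 61.2 and 155 against 156 and 128 RPKM. The sarcomeric actins lay the other way: Actc1, the cardiac form that developing muscle also makes, read 63.6 and 6.56 RPKM in WT and 2.04 and 3.06 RPKM in KO, and Acta1, the skeletal form, which was named after its values were seen, 128.5 and 41.5 against 30.1 and 25.8 RPKM. For Actc1 the log2 difference was -2.65 (95% interval -5.06 to -0.24; adjusted p = 0.67 in limma), and WT replicate 1 held most of its WT signal. The 6 actins have similar coding sequences, so reads may have been split among them.

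Of 13 tubulin genes 12 were tested, with 8 higher, 4 lower, a median of 0.15 and 0 passing, and without WT replicate 1 the median was -0.03. Tubb5, the most general beta tubulin, read 80.3 and 144 RPKM in WT and 229 and 179 RPKM in KO. Tubb6 read 38.1 and 54.0 against 82.3 and 52.3 RPKM, with overlapping groups. Alpha tubulins are close copies of each other, as are beta tubulins, and the same limit applies. The tubulin cofactors, which take tubulin over from CCT and join its alpha and beta chains, had 5 of 6 genes higher and 1 lower with a median of 0.26 (0.16 without WT replicate 1) and 0 passing. Tbca, with the most reads of them, read 40.9 and 49.7 RPKM in WT and 68.0 and 79.4 RPKM in KO, and Tbcb 27.6 and 29.4 against 26.8 and 41.2 RPKM. Tbcd, which holds beta tubulin, read 2.05 and 3.15 RPKM in WT and 7.08 and 5.96 RPKM in KO, with a log2 difference of 1.08 and an adjusted p of 0.67 in limma. The 10 genes for WD-repeat and other substrates, Gnb1 and Stat3 among them, had 7 higher, 3 lower, a median of 0.24 (0.06 without WT replicate 1) and 0 passing. Gnb1, a G protein beta subunit, read 55.2 and 91.0 RPKM in WT and 75.4 and 108 RPKM in KO, and Stat3, a transcription factor, 27.2 and 27.4 against 36.2 and 23.3 RPKM, both with overlapping groups.

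Across these partner and substrate lists, limma gave 0 adjusted calls and, at an unadjusted p under 0.05, Actc1 (lower) and Tbcd (higher), where the shares of all genes were 4.46% and 2.86%. Voom on the recovered reads also gave 0 adjusted calls and, at an unadjusted p under 0.05, Hspe1, Tuba1c, Tubb2a and Tbcd higher and Acta1 and Actc1 lower, where the shares of all genes were 3.74% higher and 7.31% lower. Tuba1c read 1.45 and 25.1 RPKM in WT and 17.4 and 14.1 RPKM in KO. Its log2 difference in limma went from 1.06 to -0.65 without WT replicate 1, while the others named here kept their direction.

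Among the 292 other deeply read protein-coding genes, the 5 whose profile over the 4 libraries was closest to the mean profile of the subunits were Actb, Emp1, Nars, Cyb5a and Myadm. Their distances, taken as the root of the summed squares of centred log2 values over 4 libraries, were 0.188, 0.205, 0.216, 0.237 and 0.240. The subunits themselves lay 0.149 (Cct2) to 0.626 (Cct5) from their own mean. All 5 genes lay closer to that mean than every subunit except Cct2 and Cct4 (0.200). The centred mean profile was -1.04 and 0.13 in WT and 0.46 and 0.45 in KO.

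Markers of the cell types that such cultures can hold differed between the libraries too. The 10 myoblast markers summed to 350 and 214 RPKM in WT and 121 and 136 RPKM in KO, with 9 of 10 lower in KO, 5 of them (Pax7, Myf5, Myog, Des and Chrna1) at an unadjusted p under 0.05 where 4.46% of the genes tested were, and 0 after adjustment in limma. Voom gave an adjusted call for Chrna1 alone, where it called 79 of the 11363 genes tested, 78 of them lower. Itga7, among the most-read of the list, read 22.8 and 12.1 RPKM in WT and 29.7 and 8.87 RPKM in KO. Myod1, the defining myogenic factor, read 140 and 117 RPKM in WT and 48.6 and 79.8 RPKM in KO, and Myog, which marks cells that have begun to differentiate, 91.0 and 4.26 against 0.74 and 1.66 RPKM. WT replicate 1, lowest in every CCT subunit, was the highest in Myog. Fibroblast markers summed to 622 and 424 RPKM in WT and 986 and 476 RPKM in KO, with 6 of 9 higher and 3 lower in KO. Dcn, the most abundant of them, read 240 and 126 against 460 and 171 RPKM, and Pdgfra 43.4 and 31.6 against 88.2 and 43.6 RPKM. Both KO libraries lay above both WT libraries for 2 (Pdgfra and Lum) and below both for 2 (Thy1 and Fbln1). Of the 11363 genes tested, 2282 lay above and 2310 below in this way. Endothelial markers summed to 106 and 99.8 against 139 and 112 RPKM, all 5 being higher in KO on average. Both KO libraries lay above both WT libraries for 4 of 5 (Pecam1, Kdr, Tek and Emcn), against 20.1% of the genes tested. Cdh5, which defines that cell type, read 71.0 and 63.6 against 87.1 and 68.0 RPKM, with overlapping groups, and Pecam1 read between 21.1 and 22.5 RPKM in all 4 libraries. Kdr, the endothelial VEGF receptor, read 3.31 and 4.47 RPKM in WT and 10.0 and 7.68 RPKM in KO (log2 difference 1.01; adjusted p = 0.672 in limma). Immune markers summed to 17.1 to 25.6 RPKM over the 4 libraries, with Itgam and Cd3e at 0. Cd68, the most-read of them, was lower in both KO libraries, at 15.8 and 23.6 RPKM in WT and 14.9 and 14.8 RPKM in KO. Adgre1, a macrophage marker, read 0.512 and 1.97 RPKM in WT and 4.43 and 4.21 RPKM in KO, from 1 to 13 reads a library. Its log2 difference was 1.33 (adjusted p = 0.672 in limma), and 0.84 without WT replicate 1. Csf1r had 0 or 1 read in the WT libraries and 6 in each KO library. Smooth muscle markers summed to 117 and 85.7 RPKM in WT and 55.3 and 79.9 RPKM in KO, most of it Acta2, and Rgs5 read 17.9 and 11.7 against 7.76 and 10.3 RPKM. The part of these markers in the CCT difference was not tested.

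RefSeq promoter windows of 300 bases on GRCm38.p6 were listed for 7 of the 8 subunits, Cct4 having none. The GC box GGGCGG, on either strand, was found in 7 of those 7, against 38.2% of 27025 genes. The heat shock element, written as GAANNTTC or TTCNNGAA, was found in Cct2, Cct5 and Cct6a (3 of 7, against 17.0% of genes), and the CCAAT box in Tcp1, Cct3, Cct6a and Cct7 (4 of 7, against 41.1%). The E-box CACGTG, the letters bound by Myc, was found in 0 of 7 against 8.09%. A match describes only the letters in the window.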

How the data were processed

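Ribosome-protected fragments from 2 WT and 2 eIF5A-KO myoblast libraries were analysed. The authors aligned reads to GRCm38 (mm10) with TopHat2, counted them per gene with HTSeq and deposited RPKM values; versions and the treatment of strand and multi-mapping reads are not given in the sources used here. Multiplying the deposited RPKM by gene length and by a denominator inferred for each library gave whole reads for all values (tolerance 0.01), and the scaling made the median gene equal between libraries, so changes shared by most genes are not seen. Deposited length is the union of all annotated exons for 8 of 8 subunits.

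From there, limma 3.58.1 in R 4.3.3 (lmFit, eBayes with a trend) was run on log2(RPKM + 1) for 11363 genes with a mean of at least 1 RPKM, with group as the only term and Benjamini-Hochberg adjustment. The script was tested on simulated data. Coding lengths were the longest coding sequence in GENCODE on GRCm38, and for Cct6a the longest open reading frame of its transcript. Named genes were the 8 subunits, the 2 most-read genes of each list and those at an unadjusted p under 0.05, and the 5 closest profiles; a gene singled out by a count was named after its values were seen. The members and lists were chosen with earlier results of these data known. Alternatives covered the pseudocount, filter, tool, scaling, GC content, pairing and each library left out.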

Additional observations from a re-analysis of the deposited data

How the results depend on the processing

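The direction of all 8 subunit differences was kept under all 16 alternatives, but not all of these could change it. The other filters, protein-coding genes only, no variance trend and the replicate block refit the same values. They left each difference as it was by construction, as did the replicate block added to the removal of the GC and length trend. The 12 genes called over the whole table fell to 0 without a variance trend, with protein-coding genes only, under either other filter (none, or a mean of 5 RPKM), with 0.1 as the pseudocount, with total reads as the scale, after removal of the trend on GC and length (the replicate block added or not) and with any 1 library left out (0 to 0), where limma gave 430 to 1854 genes at an unadjusted p under 0.05, and rose to 79 with voom on the recovered reads. No label ties the replicate numbers to a shared animal or day, and 2 pairs are too few to settle it from the data: deviations in the pairs correlated at 0.06 over all genes and 0.21 over the 3355 protein-coding genes that had 100 reads or more. The replicate block gave 0 genes called in place of 12, with adjusted p-values of the subunits in limma from 0.667 to 0.710. The median subunit difference of 0.90 became 1.51 with total reads as the scale, which moved the median of all genes by 0.47, and lay between 0.34 and 1.46 with 1 library left out (0.34 without WT replicate 1, 1.46 without WT replicate 2). By coding length the ratio of highest to lowest subunit was 2.17 in WT and 2.06 in KO, and 2 of 8 ranks were kept; with 1 WT library left out it was 3.33 to 3.93 by exon model.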
